A study of Mus musculus with 20 samples.

Results

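The transcripts of the lipid droplet coat proteins were followed across 20 mouse liver libraries, for 9 genes chosen by name out of 55359 gene identifiers: the CIDE genes Cidea, Cideb and Cidec, the perilipin genes Plin1, Plin2, Plin3, Plin4 and Plin5, and Pparg. These genes and the gene lists used below were chosen with earlier results of these data known. Counts of them called, set beside the share of all genes, are therefore a description and no test of a set. All mice were male, wild type and labelled C56BL/6, and all had 50 µL of 0.5% 7,12-dimethylbenz(a)anthracene (DMBA, a chemical carcinogen) applied to the skin at postnatal day 4 to 5. The design text states that the model was built to test how exercise acts on tumour promotion in the liver. Libraries fell into 5 groups of 4. Exercised tumours and exercised non-tumour liver came from mice on a high-fat diet (60 kcal% of fat) that were put on a treadmill from 20 weeks of age; the last 10 weeks held 5 runs a week, each of 20 min at 18 m/min. Non-exercised tumours and non-exercised non-tumour liver came from mice on the same diet that stayed in their cages. Normal-diet livers came from non-exercised mice fed 12 kcal% of fat. Livers were taken at 35 weeks, and both high-fat arms were killed on 1 day, within 2 h of the exercised arm's last run; the protocol describes the obese mice as over 45 g. Time of killing is not given for the normal-diet mice, nor fasting for any group. No tumour group on the normal diet and no exercised group on the normal diet were analysed here, so an effect of exercise can be read on the high-fat diet alone.

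Hepatocytes store triglyceride in lipid droplets, whose surface carries coat proteins of 2 families. Perilipins cover the droplet and regulate access of lipases, while CIDE proteins sit at the contacts between droplets and pass lipid from a smaller droplet to a larger. PPARG, the nuclear receptor encoded by Pparg, binds DNA as a partner of RXR at direct repeats of AGGTCA and drives fat storage genes in adipocytes. In fatty mouse liver, Cidea, Cidec and Plin4 are known as transcripts that accumulate with lipid, and its relative PPARA drives fatty acid oxidation genes and Plin2 and Plin5.

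The stretch of 250 bases before the transcription start is shown for 4 members, at the first start listed where Cidec and Plin5 have another. They were picked because Cidec had the smallest p of the members on the diet and Plin4 and Plin5 are neighbours on 1 strand. Plin2 was added because it holds the sole match to the receptor's repeat among the members searched. The sequences are those of RefSeq on GRCm38.p6, on the minus strand, read 5′ to 3′: chr6:113435761-113436010 for Cidec, chr4:86670060-86670309 for Plin2, chr17:56109783-56110032 for Plin4 and chr17:56117549-56117798 for Plin5. Capitals mark the match.
Cidec: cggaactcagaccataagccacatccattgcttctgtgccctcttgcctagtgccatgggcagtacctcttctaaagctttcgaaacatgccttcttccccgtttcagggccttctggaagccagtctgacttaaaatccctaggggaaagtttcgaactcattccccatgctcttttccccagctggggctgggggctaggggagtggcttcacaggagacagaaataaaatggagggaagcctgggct
Plin2: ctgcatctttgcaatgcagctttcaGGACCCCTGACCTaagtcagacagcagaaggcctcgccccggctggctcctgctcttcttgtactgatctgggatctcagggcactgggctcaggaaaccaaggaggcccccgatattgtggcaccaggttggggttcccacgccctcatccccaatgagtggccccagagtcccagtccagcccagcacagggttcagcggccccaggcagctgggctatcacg
Plin4: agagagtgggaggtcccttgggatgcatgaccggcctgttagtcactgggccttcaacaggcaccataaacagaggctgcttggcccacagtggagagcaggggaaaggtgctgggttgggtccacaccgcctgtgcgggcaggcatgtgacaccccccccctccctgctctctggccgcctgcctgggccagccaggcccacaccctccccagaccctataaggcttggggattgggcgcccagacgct
Plin5: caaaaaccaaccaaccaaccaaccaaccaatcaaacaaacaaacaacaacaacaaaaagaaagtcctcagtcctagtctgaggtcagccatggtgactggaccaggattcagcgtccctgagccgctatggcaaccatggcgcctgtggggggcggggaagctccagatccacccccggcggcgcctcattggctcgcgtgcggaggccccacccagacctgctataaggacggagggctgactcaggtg
The motif searched was AGGTCA repeated with 1 base between the copies, on both strands, with at most 2 mismatches in its 12 letters, in windows of 300 bases that also held the first 50 bases after the start. Cidea is not in the table. Of 12 windows for the other 8 members, 1 held a match, in Plin2, which reads AGGTCAGGGGTCC on the opposite strand and begins 225 bases before the start with 2 mismatches. A match of this kind stood in 3.9% of the 32851 windows of all genes, and an exact repeat in 0.04%. The match is a description of letters, and its absence from the other windows says nothing about binding.

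Per library, the counts over genes summed to 16471378 to 20271948. Plin1, which guards the lipid of adipocytes, had 0 or 1 count in each of the 20 libraries, below the 3 counts that a reading of 0 allows, and was left out of the tests by the filter on low counts, so 8 of the 9 members were tested among 14428 genes. On GRCm39 as the files give it, Cidea lies on chromosome 18 (67476674 to 67500855, plus strand), Cideb on chromosome 14 (55991507 to 55995915, minus), Cidec on chromosome 6 (113401595 to 113412721, minus), Plin1 on chromosome 7 (79369966 to 79382651, minus) and Plin2 on chromosome 4 (86566623 to 86588297, minus). Chromosome 17 carries Plin3 (56584476 to 56599873), Plin4 (56407591 to 56416803) and Plin5 (56418601 to 56424596), all on the minus strand, with 1797 bases between Plin4 and Plin5. Pparg lies on chromosome 6 (115337912 to 115467360, plus strand), and counts per gene cannot tell its isoforms apart. Exons of Cideb share 1136 bases with Nop9 on the opposite strand, which had 259 to 490 counts, and the files were counted by strand. Normal-diet library 2 stood apart from its group in Plin2, and exercised non-tumour library 2 in Plin3 and Plin5. Comparisons that use either library are followed by the values of some members without it.

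Levels are RPKM, which scales counts by exon length and library size, and each group's 4 values run from mouse 1 to mouse 4. Cidea, which promotes droplet growth and is best known from brown fat, ranged from absent to abundant. In exercised tumours Cidea had 5.64, 6.04, 26.3 and 11.1 RPKM, against 55.7, 37.6, 44.7 and 32.7 RPKM in exercised non-tumour liver. Non-exercised tumours had 3.32, 1.75, 17 and 20.2 RPKM, against 37.2, 19.6, 61.5 and 59.7 RPKM in non-exercised non-tumour liver. Normal-diet livers had 0.261, 0, 0.257 and 1.31 RPKM, from 33 counts over the 4 libraries. Every high-fat library lay above every normal-diet library, and tumours 1 and 2 of both arms were the lowest of the high-fat samples. By mean, non-exercised and exercised non-tumour liver came first without differing (adjusted p = 0.996), then both tumour groups, again without a called difference (adjusted p = 0.949), then the normal diet.

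Cidec, also called FSP27, builds the large single droplet of white fat. Exercised tumours had 23.5, 28.0, 40.6 and 16.6 RPKM, against 35.3, 68.2, 39.5 and 30.6 RPKM in exercised non-tumour liver. Values in non-exercised tumours were 18.3, 30.0, 27.2 and 27.6 RPKM, against 67.8, 36, 57.3 and 59.0 RPKM in non-exercised non-tumour liver. Normal-diet livers sat between 5.50 and 7.81 RPKM, the tightest group of the 5 in absolute terms and below all others. Tumours overlapped with non-tumour liver in the exercised arm and lay entirely below it in the non-exercised arm.

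Cideb, the CIDE protein of hepatocytes, works in the lipid loading of very-low-density lipoprotein, and varied least. Its 4 libraries spanned 135 to 168 RPKM in exercised tumours, against 171 to 197 RPKM in exercised non-tumour liver. Non-exercised tumours spanned 118 to 142 RPKM, against 158 to 190.1 RPKM in non-exercised non-tumour liver, and normal-diet livers 143 to 167 RPKM. In each arm all 4 tumours lay below all 4 non-tumour pieces, by a small margin. The coefficient of variation of Cideb within groups was 6.20% to 10.3%, against 23.4% to 127% for Cidea.

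Plin2, the main perilipin of hepatocytes, had the highest mean RPKM of the members in all 5 groups, although 3 of 4 normal-diet libraries held more Cideb. Exercised tumours had 277, 246, 263 and 264 RPKM, against 161, 278, 235 and 204 RPKM in exercised non-tumour liver. Non-exercised tumours had 299.8, 326, 228 and 272 RPKM, against 351, 249.97, 243 and 286 RPKM in non-exercised non-tumour liver. Normal-diet livers had 119.9, 343, 134 and 118 RPKM. The high-fat groups overlapped with each other. The normal diet overlapped with them through library 2, which was second only to a single high-fat library. The other normal-diet livers lay below all 16 high-fat libraries.

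Plin3, a perilipin found in most cells that moves from cytosol to newly formed droplets, ran in the opposite direction to the CIDE genes in tumours. Its values were 32.3, 29.9, 24.9 and 26.3 RPKM in exercised tumours, against 14.2, 24.3, 15.3 and 15.3 RPKM in exercised non-tumour liver. Non-exercised tumours had 31.7, 29.1, 20.5 and 25.7 RPKM, against 20.6, 15.6, 20.6 and 22.4 RPKM in non-exercised non-tumour liver. Normal-diet livers had 9.82, 10.7, 11.5 and 9.23 RPKM. Every high-fat library exceeded every normal-diet library, and tumours and non-tumour liver overlapped in the non-exercised arm through tumour 3.

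Plin4, a long perilipin of fat and muscle, spanned 0.256 to 6.29 RPKM among the 8 tumours. Exercised tumours had 1.01, 3.85, 6.29 and 3.73 RPKM, against 6.00, 19.5, 8.35 and 8.49 RPKM in exercised non-tumour liver. Non-exercised tumours had 0.256, 0.945, 5.32 and 5.29 RPKM, against 15.3, 7.39, 10.5 and 17.4 RPKM in non-exercised non-tumour liver. Normal-diet livers had 2.7, 3.33, 2.49 and 2.61 RPKM. The non-exercised tumours fell on both sides of the normal-diet range, with tumours 1 and 2 below it and tumours 3 and 4 above it.

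Plin5, the perilipin of oxidative tissues that links droplets to mitochondria, was low in tumours alone. Exercised tumours had 8.98, 21.5, 20.6 and 16.2 RPKM, against 30.2, 54.9, 33.3 and 33.0 RPKM in exercised non-tumour liver. Non-exercised tumours had 4.44, 10.4, 17.5 and 12.5 RPKM, against 41.7, 31.7, 35.1 and 36.2 RPKM in non-exercised non-tumour liver. Normal-diet livers had 35.6, 59.7, 31.7 and 27.7 RPKM. All 8 tumours lay below all 12 other libraries, and the 3 groups without tumour showed no called difference from each other (adjusted p = 0.855 to 0.981).

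Pparg stayed at or below 11.2 RPKM. Exercised tumours had 4.22, 5.26, 8.76 and 5.45 RPKM, against 6.83, 8.05, 9.52 and 6.85 RPKM in exercised non-tumour liver. Non-exercised tumours had 3.48, 4.36, 7.39 and 5.98 RPKM, against 11.2, 10.2, 9.42 and 10.4 RPKM in non-exercised non-tumour liver. Normal-diet livers had 4.80, 2.78, 9.14 and 5.49 RPKM, a wide range in which library 2 was the lowest of all 20. Non-exercised non-tumour liver stood above both its tumours and the normal diet without overlap, its lowest value of 9.42 RPKM standing next to 9.14 RPKM in normal-diet library 3.

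By mean RPKM, Cidec ran from non-exercised and exercised non-tumour liver through exercised and non-exercised tumours to the normal diet, and the last step was the sole one between neighbours that differed (adjusted p = 2.34e-05). Plin3 ran from exercised and non-exercised tumours to non-exercised non-tumour liver (adjusted p = 0.0455 for that step), exercised non-tumour liver and the normal diet (adjusted p = 0.00724). Plin5 ran from the normal diet through exercised and non-exercised non-tumour liver to exercised tumours (adjusted p = 0.024 for that step) and non-exercised tumours. For Cideb, Plin2, Plin4 and Pparg no neighbours in the order differed (adjusted p = 0.0826 to 0.992). Exercised non-tumour liver had the most Cideb, non-exercised non-tumour liver the most Plin2, Plin4 and Pparg, while Plin2 and Plin4 were lowest on the normal diet and Cideb and Pparg in non-exercised tumours.

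**Figure D1:**
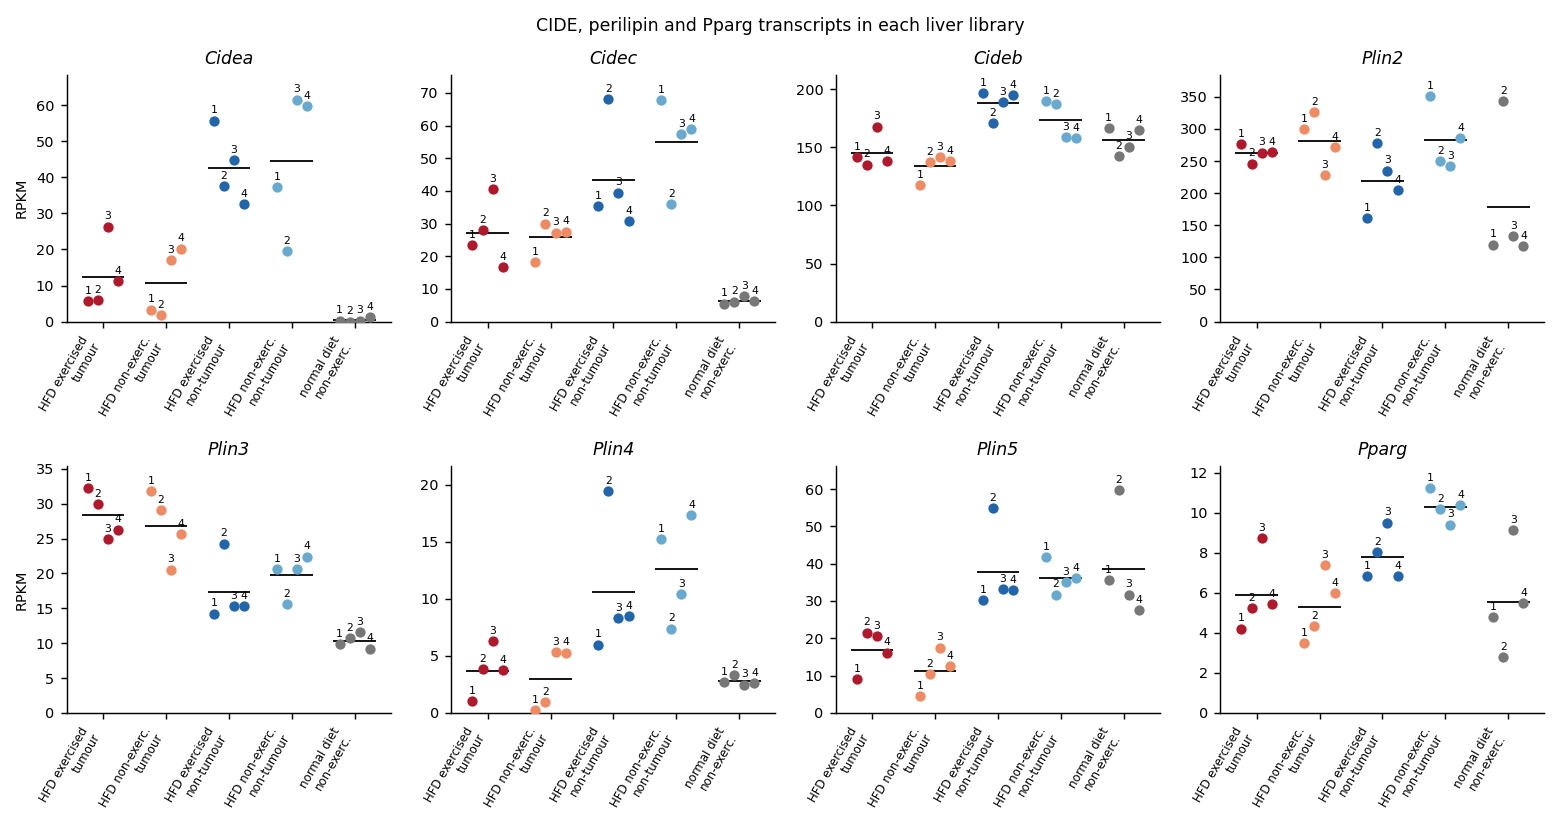
RPKM of each tested member (vertical axes, linear from 0) in the 20 libraries, by group on the horizontal axes; each point is a library, its number is the mouse and the line is the group mean. Cidea is at most 1.31 RPKM and Cidec at most 7.81 RPKM on the normal diet, Plin5 is low in the 8 tumours, and Plin2 of normal-diet library 2 stands at 343 RPKM.

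The effect of diet was read as non-exercised non-tumour liver on the high-fat diet over normal-diet liver. The high-fat pieces came from livers that also gave a tumour, as the titles' mouse numbers imply, and the normal-diet titles name no tumour. Diet and a tumour in the same liver cannot be told apart in this comparison. Cidea, Cidec, Plin3, Plin4 and Pparg were higher on the high-fat diet, while Cideb, Plin2 and Plin5 showed no called difference. Cidea was 99.6-fold higher (log2 fold change 6.64 ± 0.93 SE, adjusted p = 0.000238) and Cidec 8.52-fold higher (3.09 ± 0.30, adjusted p = 1.2e-05). Plin4 was 4.53-fold higher (2.18 ± 0.67, adjusted p = 0.0241), Plin3 1.91-fold (0.94 ± 0.17, adjusted p = 0.000866) and Pparg 1.86-fold (0.89 ± 0.29, adjusted p = 0.0313). Thus 5 of the 8 tested members rose and 0 fell, where 14% of all genes were called higher and 11.9% lower in edgeR's quasi-likelihood test with Benjamini-Hochberg adjustment. Upper-quartile scaling split all calls into 2513 higher and 1140 lower, against 2025 and 1715 here, with the same 5 members counted higher. The median log2 fold change of the members was 0.92, against 0.01 over all genes. Because the members were chosen with earlier results known, these counts describe them only.

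Members without a call on the diet were Plin2 (0.66 ± 0.27, adjusted p = 0.0813), Cideb (0.15, interval −0.05 to 0.35, adjusted p = 0.259) and Plin5 (−0.10, interval −0.81 to 0.62, adjusted p = 0.855). Without normal-diet library 2, Plin2 reached 1.19 (adjusted p = 0.000429) and Plin5 stood at 0.19 (adjusted p = 0.722). That library had 821 RPKM of Cyp4a14, an oxidation gene of PPARA, against 33.8 to 70.3 RPKM in the other normal-diet livers. Calls of Pparg and Plin4 were the least firm. Pparg lost its call without any single library of both groups other than normal-diet library 3 (adjusted p = 0.0509 to 0.083), without which it reached 1.25 (adjusted p = 0.00594), and Plin4 lost it without normal-diet library 1, 3 or 4 or without non-exercised non-tumour library 1 or 4 (adjusted p = 0.0508 to 0.0614). The fold of Cidea rested on few normal-diet counts, and its log2 value was 7.96 without normal-diet library 4. With the replicate number as a block, which for the diet pairs unrelated mice, Pparg was not called (0.99, adjusted p = 0.0637).

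Exercised non-tumour liver set against the normal diet had 3 members called. Cidea (6.58 ± 0.93, adjusted p = 0.000307), Cidec (2.75 ± 0.29, adjusted p = 3.85e-05) and Plin3 (0.74 ± 0.17, adjusted p = 0.00724) were higher, and 0 were lower, against 7.54% of all genes called higher and 6.69% lower. Plin4 (1.93, adjusted p = 0.0614), Cideb (0.27, adjusted p = 0.0733), Pparg (0.49, adjusted p = 0.27), Plin2 (0.30, adjusted p = 0.5) and Plin5 (−0.03, adjusted p = 0.967) did not pass. Without normal-diet library 2, Plin2 was called higher (0.83, adjusted p = 0.00657) and Plin5 stood at 0.26 (adjusted p = 0.679). Without exercised non-tumour library 2 the same 3 members were called, with Plin3 at 0.53 (adjusted p = 0.0266) and Plin4 at 1.45 (adjusted p = 0.195). This comparison shares its normal-diet libraries with the diet comparison above. Its groups differ in diet, in exercise and in a tumour in the same liver, which cannot be told apart.

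Tumours were compared with non-tumour liver of the same arm. In non-exercised mice most coats were lower in tumours: Plin5 at 0.31-fold (log2 −1.69 ± 0.35, adjusted p = 0.00159), Cidec at 0.469-fold (−1.09 ± 0.27, adjusted p = 0.00522), Cidea at 0.238-fold (−2.07 ± 0.65, adjusted p = 0.0203) and Plin4 at 0.235-fold (−2.09 ± 0.66, adjusted p = 0.021). Pparg stood at 0.515-fold (−0.96 ± 0.29, adjusted p = 0.0162) and Cideb at 0.771-fold (−0.38 ± 0.10, adjusted p = 0.00607). Plin3 was the sole member to rise, 1.35-fold (0.43 ± 0.16, adjusted p = 0.0455), and Plin2 differed by −0.00 (interval −0.58 to 0.57, adjusted p = 0.992). That makes 6 of 8 lower and 1 higher, where 17.8% of all genes were called lower and 18.0% higher. The median over the members was −1.02, against −0.01 over all genes. In these bulk samples, fewer cells that express a gene and less RNA of it per cell cannot be told apart.

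Several of these calls were close to the threshold. Cidea lost its call without non-exercised non-tumour library 3 (adjusted p = 0.0524) or non-exercised tumour 1 (0.0629) or 2 (0.0526), Plin4 without tumour 2 (0.0656), and Pparg without tumour 1 (0.0595) or 2 (0.0544). Plin3 lost it without non-tumour library 1, 2 or 3 or tumour 1, 2 or 4 (adjusted p = 0.0628 to 0.153), and with the mouse as a replicate block (0.45, adjusted p = 0.0556). The count of members called was 3, all lower, without tumour 2. Cidec, Cideb and Plin5 held their calls in each of the 8 fits that left out a library.

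In exercised mice 3 members were lower in tumours and 1 was higher, where 16% of all genes were called lower and 18.6% higher. Plin5 stood at 0.445-fold (log2 −1.17 ± 0.35, adjusted p = 0.0152), Cideb at 0.774-fold (−0.37 ± 0.10, adjusted p = 0.00745) and Cidea at 0.29-fold (−1.79 ± 0.65, adjusted p = 0.0406). Plin3 rose 1.64-fold (0.71 ± 0.16, adjusted p = 0.00333), and all 4 exercised tumours exceeded all 4 non-tumour pieces. Not called were Cidec (−0.67, adjusted p = 0.0625), Plin4 (−1.51, adjusted p = 0.0826), Pparg (−0.40, adjusted p = 0.305) and Plin2 (0.26, adjusted p = 0.49). The members' median was −0.54, against 0.01 over all genes.

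Among the exercised mice the call of Cidea was lost without any of the 4 non-tumour libraries or tumours 1, 2 and 4 (adjusted p = 0.05 to 0.111), and with DESeq2's Wald test (0.0653). Plin5 lost its call without tumour 1 (−0.97, adjusted p = 0.0505). Cidec gained a call without non-tumour library 4 (−0.83, adjusted p = 0.0381) or tumour 3 (−0.96, adjusted p = 0.0108), and with DESeq2 (−0.68, adjusted p = 0.0378). Without exercised non-tumour library 2, which was high in 4 perilipins, Plin5 was still called lower (−0.94, adjusted p = 0.0485), Plin3 was called higher (0.91, adjusted p = 0.00028), Cidec stood at −0.38 (adjusted p = 0.252) and Plin4 at −1.04 (adjusted p = 0.242).

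**Figure D2:**
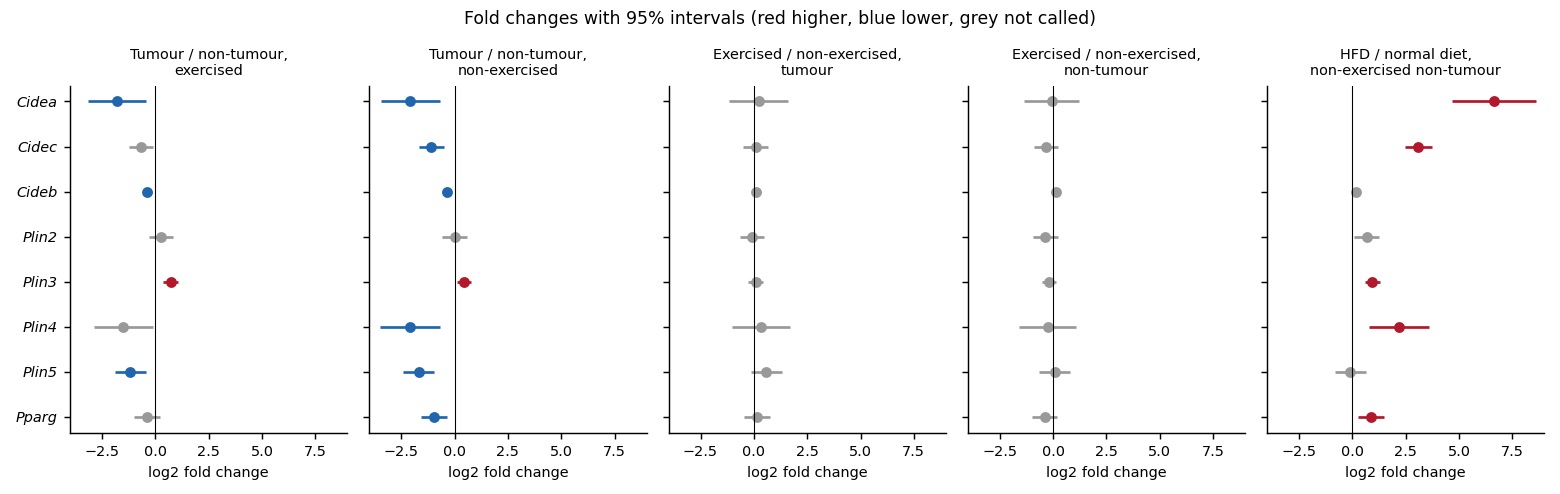
Log2 fold changes (horizontal axes) with 95% intervals for the 8 tested members (rows) in 5 comparisons; red marks a member called higher, blue lower and grey not called. The diet panel holds 5 red members led by Cidea at 6.64, the tumour panels hold Plin3 as the red member, and both exercise panels are grey throughout.

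Read mouse by mouse, the tumour difference had 1 direction for most members. Same-numbered pieces were read as 1 mouse from their titles, and no share of all genes is given beside these counts. Cidea, Cideb, Plin4, Plin5 and Pparg were lower in the tumour of 4 of 4 exercised and 4 of 4 non-exercised mice. Cidec was lower in 3 of 4 exercised and 4 of 4 non-exercised mice. Plin3 was higher in the tumour of 4 of 4 exercised and 3 of 4 non-exercised mice, and Plin2 was higher in 3 of 4 and 1 of 4. Where an arm's tumours and non-tumour pieces did not overlap, 4 of 4 follows under any pairing and adds nothing. This holds for Cideb and Plin5 in both arms, and for Cidea and Plin3 in exercised mice. It also holds for Cidec, Plin4 and Pparg in non-exercised mice. The largest single difference was Plin4 of non-exercised mouse 1, at −5.80 on the log2 CPM scale, where the other 3 mice of that arm ran from −2.94 to −0.97. Tumour 1 of that arm was also the furthest below its non-tumour piece in Plin5 (−3.22), Pparg (−1.68) and Cidec (−1.88).

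**Figure D3:**
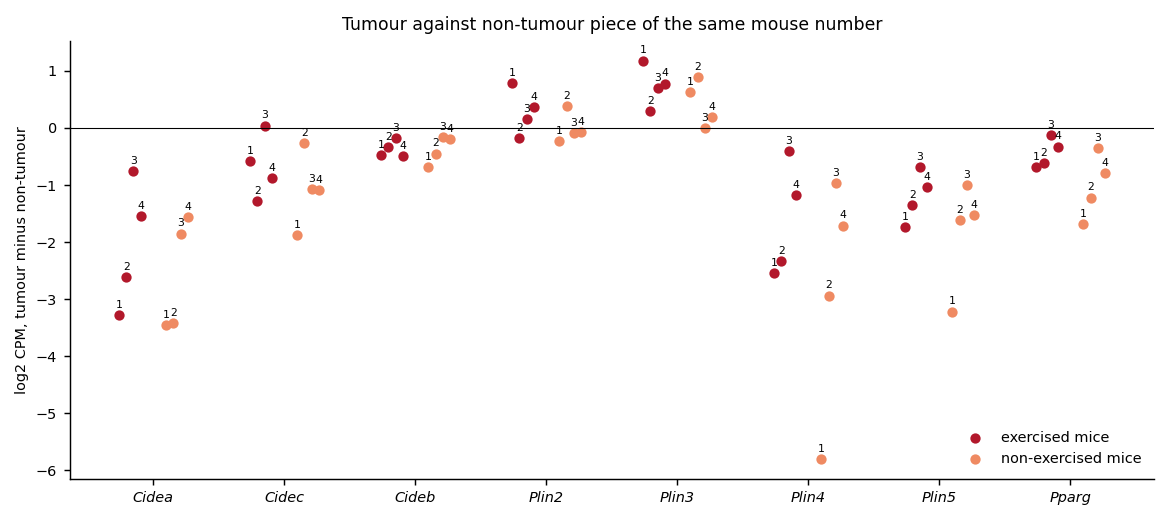
Difference in log2 CPM between the tumour and the non-tumour piece of the same mouse number (vertical axis) for each member (horizontal axis), in exercised and non-exercised mice; each point is a mouse and its number is shown. Plin4 reaches −5.80 in non-exercised mouse 1, Plin3 lies above 0 in 7 of 8 mice, and Plin2 lies on both sides of 0.

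Tumours were also set directly against the normal diet, from which they differ in both tissue and diet, and exercised tumours in exercise as well. These factors cannot be told apart here. In exercised tumours Cidea (4.79 ± 0.94, adjusted p = 0.00055), Cidec (2.08 ± 0.29, adjusted p = 2.6e-05) and Plin3 (1.45 ± 0.17, adjusted p = 4.81e-06) were higher and Plin5 was lower (−1.20 ± 0.35, adjusted p = 0.0086), which is 3 of 8 higher and 1 lower, where 26.1% of all genes were called higher and 23.2% lower. In non-exercised tumours Cidea (4.57 ± 0.95, adjusted p = 0.000646), Cidec (2.00 ± 0.29, adjusted p = 2.34e-05), Plin3 (1.37 ± 0.17, adjusted p = 4.11e-06) and Plin2 (0.66 ± 0.27, adjusted p = 0.049) were higher and Plin5 was lower (−1.78 ± 0.35, adjusted p = 0.000426). The groups overlapped for Plin2 through normal-diet library 2. Without that library Plin2 was called higher in exercised (1.08, adjusted p = 0.000131) and in non-exercised tumours (1.19, adjusted p = 4.21e-05), Cideb was called lower in non-exercised tumours (−0.27, adjusted p = 0.0385), and Plin5 stood at −0.91 (adjusted p = 0.0398) and −1.50 (adjusted p = 0.00198). Without normal-diet library 1, 3 or 4 or non-exercised tumour 1, 2 or 4, Plin2 lost its call in non-exercised tumours (adjusted p = 0.07 to 0.147). There 28.6% of all genes were called higher and 26.8% lower. Cideb had no call in exercised tumours (−0.10, adjusted p = 0.397) or in non-exercised tumours (−0.22, adjusted p = 0.0565), although all 4 non-exercised tumours lay below all 4 normal-diet livers, and Plin2 had none in exercised tumours (0.56, adjusted p = 0.0995). Plin4 in exercised tumours (0.42, interval −0.96 to 1.80) and in non-exercised tumours (0.09, interval −1.30 to 1.48) and Pparg in exercised tumours (0.10, interval −0.52 to 0.71) and in non-exercised tumours (−0.06, interval −0.68 to 0.55) had no call against the normal diet.

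Exercise gave no call for any of the 8 members in either tissue, by edgeR or DESeq2, and 0 of 8 had an unadjusted p under 0.05. In exercised against non-exercised tumours the log2 differences ran from −0.10 in Plin2 (interval −0.67 to 0.47) to 0.58 in Plin5 (interval −0.15 to 1.31, adjusted p = 0.66), where 0.0208% of all genes were called. In non-tumour liver they ran from −0.40 in Pparg (interval −1.0 to 0.20, adjusted p = 0.772) to 0.12 in Cideb (interval −0.09 to 0.32, adjusted p = 0.82), where 0.0139% of all genes, 2 in number, were called. The interval of Cideb was the narrowest, while those of Cidea (−1.36 to 1.23 in non-tumour liver) and Plin4 (−1.58 to 1.08) leave room for changes of more than a doubling. Without exercised non-tumour library 2 no member was called in non-tumour liver either, with Cidec at −0.64 (adjusted p = 0.305), Plin4 at −0.73 (adjusted p = 0.739) and Plin3 at −0.40 (adjusted p = 0.25). A difference between arms in the tumour effect was tested as an interaction, and 0 of 8 members and 0.0% of genes passed (adjusted p = 1 for every member; 293 genes had an unadjusted p under 0.05). The interaction was 0.56 in Pparg (interval −0.30 to 1.42) and 0.58 in Plin4 (interval −1.33 to 2.50), so that the calls of Cidec, Plin4 and Pparg in non-exercised mice alone do not show an effect of exercise.

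The make-up of each family differed between groups, with no test made on the shares. Of the summed CIDE RPKM, Cidea held 6.20% in exercised tumours, 5.86% in non-exercised tumours, 15.5% in exercised non-tumour liver, 16.1% in non-exercised non-tumour liver and 0.268% in normal-diet liver. Cideb held 79.4%, 79.0%, 68.7%, 64.0% and 95.8% in the same order of groups. Summed CIDE RPKM averaged 185 ± 33.2 in exercised tumours, 170 ± 21.9 in non-exercised tumours, 274 ± 12.3 in exercised non-tumour liver, 273 ± 21.8 in non-exercised non-tumour liver and 163 ± 11.5 in normal-diet liver (SD, n = 4 each).

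Among perilipins, Plin2 made up 84.3% of the summed RPKM in exercised tumours, 87.1% in non-exercised tumours, 77.2% in exercised non-tumour liver, 80.4% in non-exercised non-tumour liver and 75.8% in normal-diet liver. The share of Plin5 was 5.43%, 3.64%, 13.2%, 10.4% and 17.7% in the same order. Plin5 held at most 7.14% in any tumour and at least 9.72% in any other library. The share of Plin3 was at most 6.74% in non-tumour and normal-diet liver and at least 7.57% in every tumour.

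**Figure D4:**
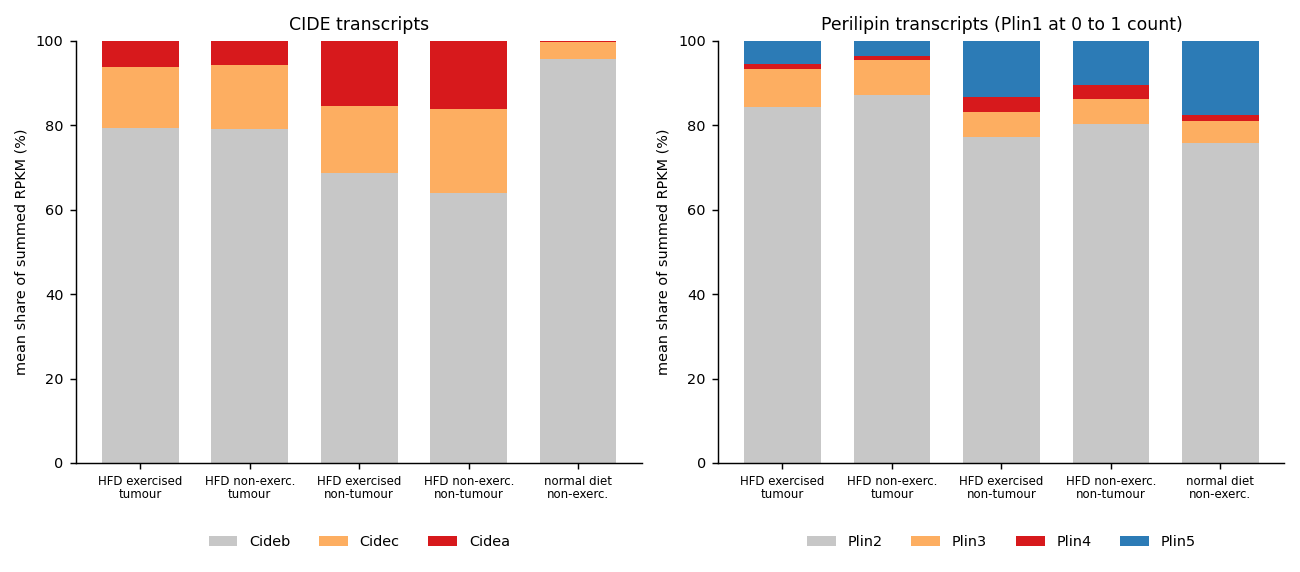
Mean share of each gene in the summed RPKM of the CIDE genes (left) and of the perilipins (right), in percent on the vertical axes, for the 5 groups on the horizontal axes. Cideb makes up 64.0% of CIDE RPKM in non-exercised non-tumour liver, against 95.8% on the normal diet, and the Plin5 share is 3.64% to 5.43% in tumours.

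Of 24 other droplet proteins tested on the diet, 4 rose and 3 fell, which is near the 14% and 11.9% of all genes. Pnpla3, a droplet-bound lipid-remodelling enzyme whose human variant is tied to fatty liver, rose by 4.07 ± 0.49 (adjusted p = 5.05e-05). Pnpla3 was higher in exercised tumours (4.12 ± 0.35) and in non-exercised tumours (2.89 ± 0.31) than in non-tumour liver of the same arm, as was Abhd5, the coactivator of the main triglyceride lipase (1.01 ± 0.17 and 1.30 ± 0.17). In exercised tumours 6 of 24 rose and 7 fell, where 18.6% of all genes rose and 16% fell. In non-exercised tumours 7 rose and 8 fell, where 18.0% of all genes rose and 17.8% fell. Mgll, the monoglyceride lipase, fell in exercised (−1.16 ± 0.31) and in non-exercised tumours (−1.57 ± 0.31).

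Of 18 known targets of PPARG, 16 were tested, and on the high-fat diet 7 rose and 1 fell, with a median of 1.02, where 14% of all genes rose and 11.9% fell. They included the fatty acid transporter Cd36 (1.84 ± 0.26, adjusted p = 0.000212), the lipoprotein receptor Vldlr (3.16 ± 0.49, adjusted p = 0.000393), the mitochondrial carrier Ucp2 (1.56 ± 0.25) and the fatty acid binding protein Fabp4 (1.58 ± 0.28). In exercised tumours 4 rose and 4 fell (median −0.51), against 18.6% and 16% of all genes, and in non-exercised tumours 2 rose and 7 fell (median −0.72), against 18.0% and 17.8%. Lpl, lipoprotein lipase, rose in exercised (2.33 ± 0.28) and non-exercised tumours (1.76 ± 0.28), while Gpd1, which makes glycerol 3-phosphate, fell (−0.66 ± 0.15 and −1.03 ± 0.15). Of 21 partners and coregulators, 0 rose and 8 fell on the diet, against 14% and 11.9% of all genes, among them the partner receptor Rxra (−0.44 ± 0.11). In exercised tumours 5 rose and 2 fell, against 18.6% and 16% of all genes, and in non-exercised tumours 6 rose and 5 fell, against 18.0% and 17.8%, with Rxra lower in both (−0.61 ± 0.12 and −0.50 ± 0.11).

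Of 19 PPARA target genes tested, 2 rose and 7 fell in exercised tumours (median −0.71), against 18.6% and 16% of all genes. In non-exercised tumours 1 rose and 11 fell (median −0.92), against 18.0% and 17.8%. The fatty acid hydroxylase gene Cyp4a31 was higher in exercised (3.05 ± 0.60) and in non-exercised tumours (3.58 ± 0.61). Among those that fell was the dehydrogenase Acadm (−0.76 ± 0.16 in exercised and −0.92 ± 0.16 in non-exercised tumours). On the diet 2 rose and 3 fell, against 14% and 11.9% of all genes, and those that rose were Fgf21 (3.93 ± 0.68) and Vnn1 (1.37 ± 0.27). Their summed CPM (counts scaled to library size) was 4750 to 8620 in exercised tumours and 4210 to 7380 in non-exercised tumours, against 11000 to 13100 and 11000 to 13500 in non-tumour liver of those arms; normal-diet livers had 8920 to 17500. The highest of the 20 sums was that of normal-diet library 2, which also had the highest Plin5, and the lowest was that of non-exercised tumour 1, which had the lowest Plin5 and Plin4. In the pathway lists, 0 genes were called for exercise in tumours or in non-tumour liver.

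**Figure D5:**
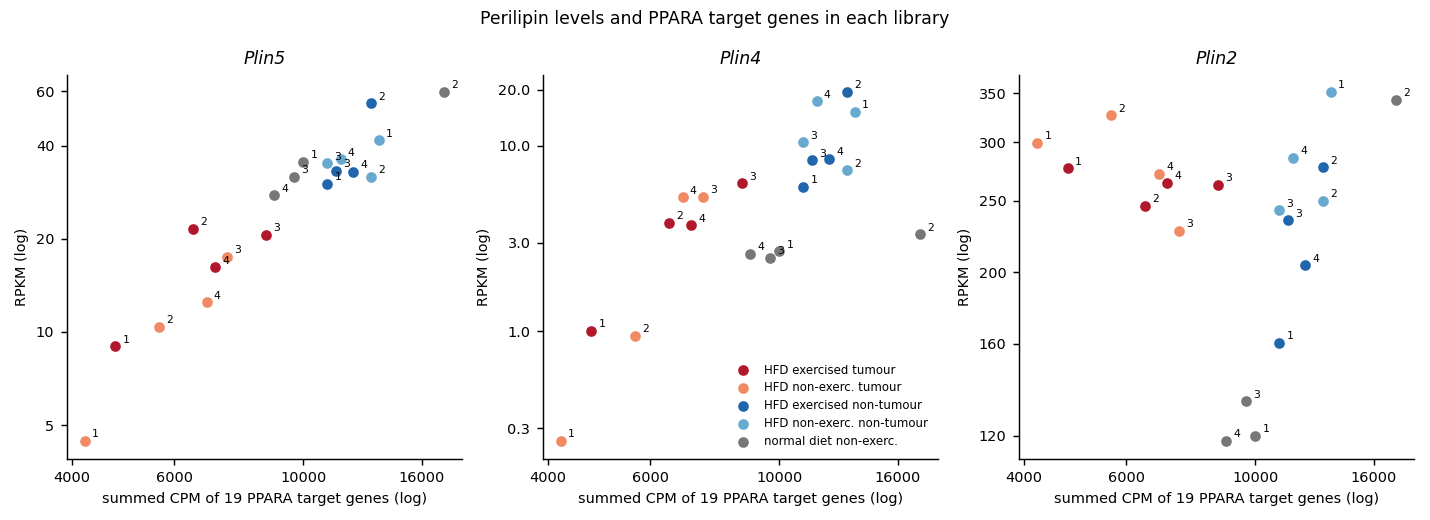
RPKM of Plin5, Plin4 and Plin2 (vertical axes, log scale) against the summed CPM of 19 PPARA target genes (horizontal axes, log scale); each point is a library, coloured by group, with its mouse number. Plin5 runs from 4.44 to 59.7 RPKM along the sum, whereas Plin2 is high both in tumours with a sum of 4210 and in normal-diet library 2 with 17500.

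Markers of other cells moved with the groups, and their part in the members' differences was not tested. Counts of markers called can be set against the shares of all genes called, 18.6% higher and 16% lower in exercised tumours, 18.0% and 17.8% in non-exercised tumours, and 14% and 11.9% on the diet. Of 9 adipocyte markers, Adipoq, Lep, Retn and Ucp1 had 0 to 2 counts in every library, and Plin1 at 0 or 1 count is measured in the same way. The summed CPM of the 9 was 56.6 to 131 in exercised tumours, 48.2 to 72.3 in non-exercised tumours, 40.9 to 64.1 in exercised non-tumour liver, 48.2 to 70.9 in its non-exercised counterpart and 18.7 to 36.2 on the normal diet. Within the sum, Fabp4, which macrophages also express, gave 39.7 to 76.5 CPM in exercised tumours and 9.53 to 13.6 CPM on the normal diet. Of 5 adipocyte markers tested, 2 rose and 0 fell in exercised tumours, 1 rose and 2 fell in non-exercised tumours, and 2 rose and 0 fell on the diet. Markers of lipid-associated macrophages summed to 254 to 1810 CPM in exercised tumours, 555 to 1780 in non-exercised tumours, 74.2 to 215 in exercised non-tumour liver, 83.7 to 284 in its non-exercised counterpart and 43.7 to 74.2 on the normal diet, and 6 of 8 rose with the diet and 3 of 8 in tumours of each arm. The 3 were Spp1, Cd63 and Cd9, of which Spp1 alone gave 92.3 to 1430 CPM in exercised and 357 to 1440 CPM in non-exercised tumours, while Trem2, Gpnmb, Lgals3, Itgax and Mmp12 had no call in tumours of either arm. Kupffer cell markers summed to 111 to 284, 91.8 to 446, 343 to 458, 332 to 393 and 177 to 250 CPM in the same order, with 4 of 7 lower in exercised and 3 of 7 in non-exercised tumours and 3 higher with the diet. Stellate cell markers summed to 436 to 645, 436 to 935, 439 to 815, 562 to 844 and 441 to 585 CPM, with 2 of 10 higher on the diet, Col1a1 and Col3a1, and with 1 higher and 1 lower in exercised and 1 higher and 4 lower in non-exercised tumours.

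Hepatocyte markers summed to 138000 to 241000 CPM in exercised tumours and 111000 to 232000 in non-exercised tumours, against 84000 to 99200 in exercised non-tumour liver, 62000 to 89100 in its non-exercised counterpart and 87800 to 102000 on the normal diet. The sum is carried by a few abundant genes: in exercised tumours 3 of 9 rose and 1 fell, in non-exercised tumours 3 rose and 2 fell, and 5 fell with the diet. Mitochondrially encoded transcripts summed to 30200 to 40300 CPM in exercised tumours and 22400 to 34300 in non-exercised tumours, against 43900 to 53700 in exercised and 35800 to 50000 in its non-exercised counterpart and 48500 to 59100 on the normal diet. Of 6 tested, 3 fell in exercised and 5 in non-exercised tumours, and 1 fell with the diet. Sinusoidal endothelial markers summed to 256 to 389 CPM in exercised tumours and 201 to 389 in non-exercised tumours, against 181 to 323 elsewhere, with 2 of 7 higher in tumours of each arm and 1 lower on the diet. Markers of skeletal muscle stayed at 0.487 to 1.17 CPM in all libraries.

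The members did not form a single pattern. Over the 20 libraries, which share the 5 group means, Pearson's r of log2 CPM was 0.898 between Cidea and Cidec, but 0.257 between their deviations from the group means. For Plin4 and Plin5 it was 0.776, and 0.872 for the deviations. Plin2 and Plin5 had −0.208 over libraries, and 0.315 for the deviations. The tested genes most like each member by the same measure were Ntrk2 for Cidea (r = 0.956), Dio1 for Cideb (0.944), Lrrc39 for Cidec (0.948), Atf5 for Plin2 (0.886), Morc4 for Plin3 (0.984), Rufy4 for Plin4 (0.949), Glrx for Plin5 (0.961) and Hyi for Pparg (0.917). Next in likeness came Tnfrsf19 and Zfp788 for Cidea, Gpc1 and Fam131c for Cidec, Nbdy and Ly6d for Plin3, Cyp2c38 and Eno1 for Plin4, and Decr2 and Pex11a for Plin5 (r = 0.916 to 0.976). For Cideb they were Ypel5 and Commd6, for Plin2 Gas2l1 and Prrc1, and for Pparg Acot13 and Adgrv1 (r = 0.853 to 0.926). Deviations from the group means gave the same sign for all 24, between 0.0926 for Gpc1 and 0.956 for Rufy4. The genes were picked by r over these same libraries, which favours a shared sign, so the sign is no separate check.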

How the data were processed

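Liver RNA was measured as raw read counts per gene, which the authors deposited for 20 libraries, made with featureCounts 2.0.5 over exons of GENCODE M27 on GRCm39 at strand setting 2, per the file headers. Trim Galore 0.6.10 and STAR 2.7.11a are named in the submitters' processing notes, and a stranded kit for polyadenylated RNA in the labels' protocols. Whether fragments or multi-mapped reads were counted is not stated here. Groups and mouse numbers come from the sample titles, which number the mice 1 to 4 within each group. A tumour and a non-tumour piece with the same number in an arm were read as 1 mouse, which the titles imply and do not state.

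From the counts, edgeR 4.0.16 (R 4.3.3, limma 3.58.1) fitted 5 group means over all 20 libraries by quasi-likelihood with the robust option, TMM scaling, filterByExpr (minimum count 10, minimum total 15) and 15 residual degrees of freedom. Tests were two-sided, p-values were adjusted by Benjamini-Hochberg over the 14428 genes kept, and a gene below 0.05 is called. Fold changes and intervals (95%) are on the log2 scale of the fit, and RPKM uses TMM-scaled totals and the summed exon length per gene. At 1 CPM the smallest library holds 16.5 counts, and intervals on low genes are wide. The procedure was tested on simulated counts with known changes. Symbols come from a gene name table that matched 52083 of 55359 identifiers.

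Libraries of a group correlated at 0.934 to 0.99 and had a chi-square per gene of at least 9.06, where sampling noise alone gives about 1, so none was a copy of another. Pairing was checked by the correlation of deviations of same-numbered pieces, 0.0754 to 0.441 in exercised and −0.0835 to 0.213 in non-exercised mice. Exercised and non-exercised tumours of the same number, which are different mice, gave 0.0281 to 0.573, so the check does not show pairing. The titles' mouse numbers, not this check, are why the mouse entered as a block in an alternative. The labels give no sequencing batch.

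The 9 members, 4 pathway lists and 8 marker lists were chosen with earlier results of these data known. Named genes are the members, of each pathway list called genes among the 4 with the smallest p in that comparison, and for likeness the 3 genes of highest r. Mgll was not among the 4 in exercised tumours and is given there beside its value in the other arm. Alternatives were RLE and upper-quartile scaling, DESeq2 1.42.0, other filters, a fit of only the groups compared, replicate blocks and leaving out each library; for the groups set against the normal diet, the last alone was run, chosen after seeing the data. Marker genes, and the genes given for single libraries, were named after their values were seen.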

Additional observations from a re-analysis of the deposited data

Results flagged for a closer look

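In 40 sets of 4 libraries (8 members in 5 groups), 3 values stood far from the rest of their set. The gaps were 0.875 to 0.93 of the group's range, in normal-diet library 2 and exercised non-tumour library 2. Chance flags about 1 in 20 such sets. Plin2 in normal-diet library 2 had 343 RPKM, against 118 to 134 RPKM in the other normal-diet livers. Plin3 in exercised non-tumour library 2 had 24.3 RPKM, against 14.2 to 15.3 RPKM in the rest of its group. Plin5 in the same exercised non-tumour library had 54.9 RPKM, against 30.2 to 33.3 RPKM. That library also had the highest Plin2, Plin4 and Cidec of its group, at 278, 19.5 and 68.2 RPKM, and 13 RPKM of Pdk4, a PPARA target that restrains glucose oxidation, against 2.23 to 4.33 RPKM; its Cpt1a, another such target, was 74.0 RPKM against 53.6 to 70.8 RPKM. Normal-diet library 2 had 71.8 RPKM of Cpt1a, against 37.8 to 45.8 RPKM in its group, and 5.10 RPKM of Pdk4, against 4.85 to 8.35 RPKM. Pdk4 and Cpt1a were chosen after their values were seen.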

How the results depend on the processing

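Each fold change of a member kept its sign in every alternative in which it was called. Members called on the diet numbered 5, with 3 when low counts were not filtered and 3 to 5 when single libraries were left out. For tumours in non-exercised mice the number was 7, with 3 unfiltered, 4 when only the groups compared were fitted, and 3 to 7 with libraries left out. In exercised mice it was 4, with 2 to 5. Exercise called 2 genes in non-tumour liver, against 1 unfiltered, 0 with only the groups compared, 0 with the replicate block by number, 107 with DESeq2 and 0 to 72 with libraries left out. In tumours it called 3, against 1 with RLE, upper-quartile or 1 CPM settings, 0 with only the groups compared, 0 with the replicate block by number, 79 with DESeq2 and 0 to 41 with libraries left out. No member was among them in any of these fits. The mouse as a replicate block ended the call of Plin3 in non-exercised tumours (0.45, adjusted p = 0.0556) and changed no other member's call. Without the filter the calls lost were Plin4 and Pparg on the diet, Cidea, Plin3, Plin4 and Pparg in non-exercised tumours and Cidea in exercised tumours (adjusted p = 0.0502 to 0.104). With only the groups compared they were Pparg on the diet and Cidea, Plin3 and Plin4 in non-exercised tumours (0.0536 to 0.0687).

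Signs turned only in differences without a call. For Plin2 in non-exercised tumours the value was 0.0157 with RLE, 0.0105 unfiltered, 0.0157 with DESeq2, 0.0179 with the mouse block and −0.0802 to 0.119 with libraries left out. The interaction of Cideb was −0.01995 with RLE, −0.0255 unfiltered, −0.0078 at 1 CPM, −0.0217 with only the groups compared, −0.02001 with DESeq2, −0.0280 with the mouse block and −0.0897 to 0.0411 with libraries left out. Exercise gave 0.0584 for Cidea in non-tumour liver with the replicate block by number and −0.30 to 0.14 with libraries left out, and −0.17 to 0.16 for Plin5. In tumours the left-out ranges were −0.49 to 0.73 for Cidea, −0.20 to 0.25 for Cidec, −0.0374 to 0.18 for Plin3, −0.0635 to 0.77 for Plin4 and −0.11 to 0.35 for Pparg. The interaction of Cidea ran from −0.43 to 0.80, and Plin5 on the diet from −0.23 to 0.19. Against the normal diet, with libraries left out, exercised non-tumour liver had 1142 to 2141 genes called against 2053; Plin5 there ran from −0.26 to 0.26, Plin4 in non-exercised tumours from −0.36 to 0.47, and Pparg from −0.17 to 0.45 in exercised and −0.29 to 0.29 in non-exercised tumours. The cause was not tested. RPKM with unscaled totals was 0.923 to 1.12 times the values given, and 38 of 40 group means moved by less than 1 SD.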
